A study of Homo sapiens with 18 samples.

Results

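The 7 genes described here belong to the aryl hydrocarbon receptor (AHR) pathway and were followed by symbol through the 6 MCF-10A lines: the receptor AHR, its partner ARNT, its repressor AHRR and the target genes CYP1A1, CYP1B1, TIPARP and ALDH3A1. These 7 genes are 7 of 22031 in the table, and all 7 passed the filter on low values. They were chosen by name, with earlier results of these data known, so counts of them beside shares of all genes are a description. MCF-10A cells come from human breast epithelium and are not malignant. The dNER lines (deficient in nucleotide excision repair) each carried 1 lentiviral shRNA, against XPA (shXPA), XPC (shXPC), ERCC4 (shERCC4), ERCC5 (shERCC5) or ERCC6 (shERCC6), and the control line carried a non-target shRNA (shCTRL). Every line was transduced, selected in puromycin until resistant colonies formed and grown in the same medium with horse serum, EGF, insulin, hydrocortisone and cholera toxin, and the methods name no AHR ligand added to the cells sequenced. Each line gave 3 biological replicates (18 libraries), so p-values rest on the spread between replicates of a line and not between independently made lines, and the effect of 1 shRNA cannot be told apart from that of the cells it was selected in.

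AHR is a ligand-activated transcription factor of the bHLH-PAS family. Without ligand it is held in the cytosol by a chaperone complex with HSP90 and p23, and with ligand it enters the nucleus, pairs with ARNT and binds xenobiotic response elements (XREs) with the core GCGTG. CYP1A1 is the classic readout of this pathway, CYP1B1 is the family member known for basal expression in mammary epithelium, and AHRR and TIPARP are induced by AHR and restrain it in turn.

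Promoter windows from RefSeq (GRCh38.p14, the 250 bases before each annotated start) were found for 5 of the 7 genes and are shown for the targets CYP1A1, AHRR and TIPARP because these carry the XRE core, printed in capitals on whichever strand it was found. The CYP1A1 window is chr15:74725529-74725778 on the minus strand, AHRR has windows at chr5:321464-321713 and chr5:322360-322609 on the plus strand, and the TIPARP window is chr3:156674340-156674589 on the plus strand.
CYP1A1: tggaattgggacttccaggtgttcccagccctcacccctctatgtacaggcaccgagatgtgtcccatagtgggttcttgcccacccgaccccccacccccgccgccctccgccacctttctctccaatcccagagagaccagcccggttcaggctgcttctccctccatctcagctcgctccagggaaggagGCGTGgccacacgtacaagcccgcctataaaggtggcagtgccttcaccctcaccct
AHRR, window 1: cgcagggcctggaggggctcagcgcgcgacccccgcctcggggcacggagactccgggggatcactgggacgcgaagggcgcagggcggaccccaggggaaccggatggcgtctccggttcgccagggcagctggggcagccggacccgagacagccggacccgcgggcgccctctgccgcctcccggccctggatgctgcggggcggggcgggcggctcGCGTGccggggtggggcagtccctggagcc
AHRR, window 2: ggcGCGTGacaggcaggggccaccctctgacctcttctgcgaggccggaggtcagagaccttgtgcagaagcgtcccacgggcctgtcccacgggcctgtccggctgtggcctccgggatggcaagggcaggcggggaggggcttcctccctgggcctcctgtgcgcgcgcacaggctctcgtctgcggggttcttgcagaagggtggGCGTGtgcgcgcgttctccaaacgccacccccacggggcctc
TIPARP: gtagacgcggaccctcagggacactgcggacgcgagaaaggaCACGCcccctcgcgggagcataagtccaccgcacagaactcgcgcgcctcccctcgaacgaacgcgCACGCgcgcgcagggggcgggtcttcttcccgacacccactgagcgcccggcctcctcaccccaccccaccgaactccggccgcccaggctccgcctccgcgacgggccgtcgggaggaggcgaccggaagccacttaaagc
The core GCGTG, searched on both strands, had its leftmost letter 57 bases before the CYP1A1 start, 30 bases before the first AHRR start, 247 and 42 bases before the second, and 208 and 142 bases before the TIPARP start, where it lay on the opposite strand and so reads CACGC. The longer form TNGCGTG, which contains the core, was found in the first AHRR window alone among the 8 windows of these genes. The windows of AHR (chr7:17298402-17298651) and ARNT (chr1:150876600-150876849) and the other 2 TIPARP windows held no core. Of 35116 RefSeq windows of this length, 32.2% held GCGTG and 4.52% held TNGCGTG, so a match is a description of these letters and not evidence of a bound site.

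The values are TPM (each transcript as a share of its library, set to a fixed total), compared as log2(TPM + 0.5) with limma over 16382 genes, and a gene was called at a Storey q under 0.05 and a fitted fold above 1.5. On this scale, the fold of a gene near or under 1 TPM is understated. TPM keep no read depth, so precision is the spread over 3 replicates. The targeted gene was at 67.6% of shCTRL in shXPA, 44.1% in shXPC, 40.8% in shERCC4, 51.6% in shERCC5 and 44.0% in shERCC6. All 7 basal epithelial markers were detected, with a summed level of 3668 to 10323 TPM in dNER libraries and 4827 to 5147 TPM in shCTRL. Of 3 hepatocyte markers, 2 reached 1 TPM in a library, and their sum was 0 to 12.5 TPM in dNER libraries and 0.130 to 0.324 TPM in shCTRL, highest in shERCC5, where ALB averaged 5.75 TPM. Of 4 fibroblast markers, 3 reached 1 TPM in a library, and their sum was 85.8 to 177 TPM in dNER libraries and 214 to 228 TPM in shCTRL, with no overlap. Most of it was DCN (decorin), which averaged 73.1 TPM in shXPC to 155 TPM in shXPA, against 211 TPM in shCTRL, while COL1A2 stayed under 1 TPM in every library. The part of these markers in the results was not tested. The 100 most abundant genes held 40.4% to 58.8% of the TPM in dNER libraries and 34.9% to 37.1% in shCTRL, and the clone-named entry CTD-2328D6.1 alone held 26.5% of shERCC4 replicate 1. For the mean of the 5 dNER lines against shCTRL, the median gene had a log2 fold change of -0.33. Median-of-ratios scaling moved it to 0.0052 and moved the share of calls that were higher to 53.2%, against 21.5% without it, so calls of the 7 genes that depend on this scaling are named beside them.

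AHR mRNA was higher in the dNER lines than in shCTRL. It was at 73.0, 66.2 and 53.3 TPM in shXPA, 41.5, 70.1 and 45.9 TPM in shXPC, 23.6, 27.8 and 39.3 TPM in shERCC4, 37.9, 39.4 and 43.8 TPM in shERCC5 and 29.2, 29.8 and 27.0 TPM in shERCC6, against 22.8, 16.3 and 20.5 TPM in shCTRL. All 15 dNER libraries lay above all 3 shCTRL libraries, although the lowest shERCC4 library lay close to the highest shCTRL library. The mean was 64.2 ± 10.04 TPM in shXPA, 52.5 ± 15.4 TPM in shXPC, 30.2 ± 8.15 TPM in shERCC4, 40.3 ± 3.07 TPM in shERCC5 and 28.7 ± 1.502 TPM in shERCC6, against 19.8 ± 3.29 TPM in shCTRL (SD, n = 3 each). AHR rose in shXPA (log2 fold change 1.67, 95% interval 1.25 to 2.09, limma q = 6.51e-07), in shXPC (1.36, 0.94 to 1.77, q = 5.22e-06) and in shERCC5 (1.02, 0.60 to 1.43, q = 0.000144). In shERCC4 the log2 fold change was 0.58 (q = 0.0079) and in shERCC6 it was 0.53 (q = 0.0173), both under the fold threshold. Both passed it under median-of-ratios scaling, at 0.99 in shERCC4 and 0.77 in shERCC6. The shERCC4 call was also gained without shCTRL replicate 1 (0.68), shCTRL replicate 3 (0.61), shERCC4 replicate 1 (0.73) or shERCC4 replicate 2 (0.62), and the shERCC6 call without shCTRL replicate 1 (0.63). For the mean of the 5 lines the log2 fold change of AHR was 1.03 (0.71 to 1.35, q = 6.54e-06), and 3.52% of the genes tested rose further.

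ARNT, the partner that AHR needs to bind DNA and that HIF proteins share, was the member with the smallest differences in most lines. It was at 36.4, 32.6 and 29.8 TPM in shXPA, 21.3, 25.5 and 22.4 TPM in shXPC, 17.1, 23.7 and 26.7 TPM in shERCC4, 23.6, 21.0 and 25.3 TPM in shERCC5 and 30.9, 27.9 and 24.4 TPM in shERCC6, against 34.6, 39.9 and 32.7 TPM in shCTRL. The shXPA libraries overlapped shCTRL, and those of the other 4 dNER lines lay below it. ARNT was called lower in shXPC (log2 fold change -0.62, q = 0.000512), shERCC4 (-0.67, q = 0.000446) and shERCC5 (-0.61, q = 0.000924), and the values were -0.12 in shXPA and -0.36 in shERCC6. None of these calls was kept under median-of-ratios scaling, where the log2 fold changes were 0.21 in shXPA, which turned its sign, -0.15 in shXPC, -0.25 in shERCC4, -0.27 in shERCC5 and -0.12 in shERCC6. The shXPC call was also lost without shCTRL replicate 2 (-0.54) or shXPC replicate 1 (-0.56). The shERCC4 call was lost without shERCC4 replicate 1 (-0.49), and the shERCC5 call without shCTRL replicate 2 (-0.52) or shERCC5 replicate 2 (-0.53). Within a library, where a scale factor common to all its values cancels, AHR stood at 1.94 ± 0.135 TPM per TPM of ARNT in shXPA, 2.25 ± 0.438 in shXPC, 1.34 ± 0.152 in shERCC4, 1.74 ± 0.134 in shERCC5 and 1.04 ± 0.0848 in shERCC6, against 0.564 ± 0.137 in shCTRL (SD, n = 3 each). The ratio was 0.943 or more in every dNER library and 0.658 or less in every shCTRL library.

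AHRR, the repressor that competes with AHR for ARNT and is itself an AHR target, had low levels in all lines. It was at 1.61, 2.70 and 3.20 TPM in shXPA, 1.37, 0.350 and 0.251 TPM in shXPC, 1.55, 2.05 and 0.456 TPM in shERCC4, 0.228, 0.487 and 0.759 TPM in shERCC5 and 1.25, 0.852 and 0.739 TPM in shERCC6, against 4.998, 3.71 and 2.60 TPM in shCTRL. The replicates were far apart, most of all in shXPC and shERCC4, and yet only shXPA overlapped shCTRL. AHRR fell in shXPC (log2 fold change -1.97, q = 0.000143), shERCC4 (-1.28, q = 0.00498), shERCC5 (-2.10, q = 0.00013) and shERCC6 (-1.54, q = 0.00274), while shXPA gave -0.51 (95% interval -1.36 to 0.34, q = 0.101). The shERCC4 call was lost under quantile normalization (-0.89, q = 0.0532). PDCD6, whose gene overlaps AHRR on the same strand of chromosome 5, had means of 80.1 to 98.5 TPM in the dNER lines and 116 TPM in shCTRL, many times the AHRR level, with log2 fold changes of -0.53 to -0.24 and no call, and how the authors assigned reads of overlapping transcripts was not stated.

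CYP1A1, the cytochrome P450 that oxidises polycyclic aromatic hydrocarbons, had the deepest fall of the 7 genes for the mean of the 5 lines and in each line but shXPC, where ALDH3A1 and AHRR fell further. It was at 1.36, 0.494 and 0.553 TPM in shXPA, 3.04, 2.50 and 3.05 TPM in shXPC, 0.255, 0.444 and 0.351 TPM in shERCC4, 1.62, 1.10 and 1.01 TPM in shERCC5 and 1.01, 1.35 and 0.655 TPM in shERCC6, against 8.71, 9.47 and 11.2 TPM in shCTRL. The highest dNER library, in shXPC, was still far below the lowest shCTRL library. The mean was 0.801 ± 0.481 TPM in shXPA, 2.87 ± 0.316 TPM in shXPC, 0.350 ± 0.0942 TPM in shERCC4, 1.24 ± 0.328 TPM in shERCC5 and 1.00 ± 0.349 TPM in shERCC6, against 9.79 ± 1.27 TPM in shCTRL (SD, n = 3 each). As shares of the shCTRL mean these levels were 8.18% in shXPA, 29.3% in shXPC, 3.57% in shERCC4, 12.7% in shERCC5 and 10.3% in shERCC6. CYP1A1 was called lower in every line, with log2 fold changes of -3.04 in shXPA (q = 1.45e-08), -1.61 in shXPC (q = 1.43e-05), -3.60 in shERCC4 (q = 7.21e-09), -2.57 in shERCC5 (q = 2.18e-07) and -2.79 in shERCC6 (q = 2.91e-07). For the mean of the 5 lines the value was -2.72 (95% interval -3.14 to -2.30, q = 3.19e-09), and 0.348% of the genes tested fell further. Under median-of-ratios scaling it was -2.39, and every alternative run kept the calls in all 5 lines. CYP1A2, its neighbour on chromosome 15 and a liver enzyme, did not pass the filter and averaged 0.638 to 0.867 TPM in the dNER lines and 0.826 TPM in shCTRL.

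**Figure D1:**
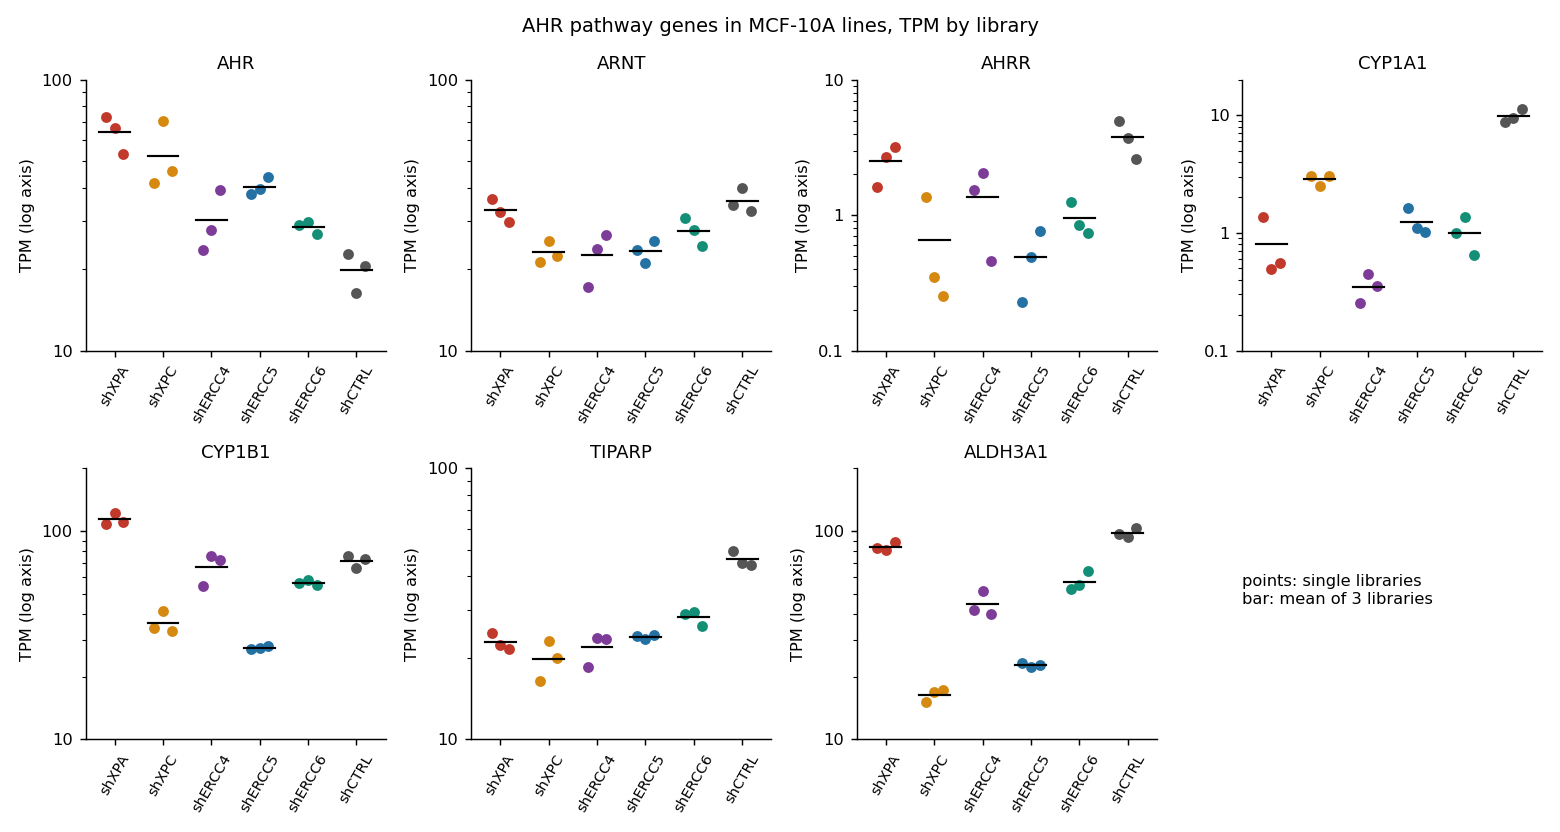
TPM on a log axis (y) of each of the 7 AHR pathway genes in the 6 lines (x), with 1 point per library and a bar at the mean of 3 libraries. All dNER points lie above shCTRL for AHR and below it for CYP1A1 and TIPARP, while CYP1B1 lies above shCTRL in shXPA, overlaps it in shERCC4 and lies below it in shXPC, shERCC5 and shERCC6.

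CYP1B1, which hydroxylates oestradiol and polycyclic hydrocarbons, did not follow CYP1A1. It was at 108, 122 and 111 TPM in shXPA, 34.1, 41.3 and 33.2 TPM in shXPC, 54.7, 75.7 and 72.5 TPM in shERCC4, 27.3, 27.5 and 27.9 TPM in shERCC5 and 56.2, 58.3 and 55.3 TPM in shERCC6, against 75.6, 66.7 and 73.4 TPM in shCTRL. Every shXPA library lay above shCTRL, every library of shXPC, shERCC5 and shERCC6 lay below it, and shERCC4 overlapped it. CYP1B1 rose in shXPA (log2 fold change 0.66, 95% interval 0.42 to 0.90, q = 3.87e-05) and fell in shERCC5 (-1.37, -1.61 to -1.12, q = 3.23e-08) and shXPC (-0.99, -1.23 to -0.74, q = 4.68e-07). The values were -0.10 in shERCC4 (q = 0.165) and -0.34 in shERCC6 (q = 0.0109), with no call. Under median-of-ratios scaling the rise in shXPA was 0.99 and the fall in shERCC5 was -1.03, both still called, but shXPC was at -0.51, under the fold threshold, and shERCC4 turned to 0.32. The shERCC4 value also turned to 0.044 without shERCC4 replicate 1. A gene called higher in some dNER line and lower in another was not common: 2.55% of the genes tested were. CYP1B1 overlaps the antisense gene CYP1B1-AS1 on chromosome 2, and since use of strand in the counting was not stated, reads of the pair cannot be told apart.

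TIPARP, an ADP-ribosyltransferase that modifies AHR and limits its activity, fell by a similar amount in all lines. It was at 24.8, 22.4 and 21.6 TPM in shXPA, 16.4, 23.0 and 19.98 TPM in shXPC, 18.4, 23.6 and 23.5 TPM in shERCC4, 24.0, 23.4 and 24.2 TPM in shERCC5 and 29.1, 29.5 and 26.3 TPM in shERCC6, against 49.8, 44.9 and 44.1 TPM in shCTRL. No dNER library overlapped shCTRL, and the shERCC6 libraries were the highest of the dNER libraries. The log2 fold change was -0.998 in shXPA (q = 9.57e-07), -1.21 in shXPC (q = 9.73e-08), -1.07 in shERCC4 (q = 1.07e-06), -0.94 in shERCC5 (q = 3.23e-06) and -0.70 in shERCC6 (q = 0.000134), with a call in each. TIPARP and CYP1A1 were thus called lower in every dNER line, as were 9.53% of the genes tested, and 0 of the 7 genes were called higher in every line by limma, as 2.01% of the genes tested were, with AHR higher in every line at an unadjusted p under 0.05. Under median-of-ratios scaling the TIPARP values were -0.46 to -0.74, and the call in shERCC6 (-0.46) was lost. Under that scaling AHR was called higher in every dNER line, from 0.77 in shERCC6 to 1.99 in shXPA. By line, 10.3% (shERCC4) to 18.5% (shXPA) of all genes were higher under it. The antisense gene TIPARP-AS1 overlaps the start of TIPARP on chromosome 3, with the same limit on strand.

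ALDH3A1, an aldehyde dehydrogenase that is induced through AHR in some cells and is abundant in squamous and corneal epithelium, was at 82.5, 81.0 and 88.2 TPM in shXPA, 15.1, 16.8 and 17.2 TPM in shXPC, 41.9, 51.7 and 40.0 TPM in shERCC4, 23.3, 22.3 and 22.7 TPM in shERCC5 and 52.4, 54.9 and 64.1 TPM in shERCC6, against 97.0, 93.7 and 103 TPM in shCTRL. All dNER libraries lay below shCTRL, narrowly in shXPA and widely in shXPC and shERCC5. ALDH3A1 fell in shXPC (log2 fold change -2.54, q = 5.06e-12), shERCC5 (-2.08, q = 9.10e-11), shERCC4 (-1.14, q = 9.85e-08) and shERCC6 (-0.78, q = 1.19e-05), and shXPA gave -0.22 (95% interval -0.44 to -0.0037, q = 0.0266) with no call. Under median-of-ratios scaling the shXPA value turned to 0.11 and the shERCC6 call was lost (-0.53), while shXPC (-2.07), shERCC5 (-1.74) and shERCC4 (-0.71) stayed called.

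Counted by line, 2 of the 7 genes were called higher and 2 lower in shXPA, against 11.9% and 30.9% of all genes tested. In shXPC 1 was higher and 6 were lower (9.89% and 38.0% of all genes), and in shERCC5 1 was higher and 6 were lower (9.97% and 28.3%). In shERCC4 5 were lower (30.9% of all genes) and in shERCC6 4 were lower (19.7%). No member was called higher by limma in shERCC4 (4.38% of all genes) or in shERCC6 (6.52%), while 1 was higher in each at an unadjusted p under 0.05, and 1 in each was called under median-of-ratios scaling. For the mean of the 5 lines 1 was higher and 4 were lower, against 7.84% and 28.6%, and the median log2 fold change of the 7 genes was -0.98, against -0.33 over all genes. Under median-of-ratios scaling members called higher numbered 2 in shXPA and 1 in each of the other lines. Under that scaling 18.5% of all genes were higher in shXPA, 18.4% in shXPC, 10.3% in shERCC4, 16.1% in shERCC5 and 11.1% in shERCC6. Members called lower under it numbered 2 for shXPA, 4 for shXPC, 4 for shERCC4, 5 for shERCC5, 2 for shERCC6 and 4 for the mean. The share of all genes called lower under it was 17.1% in shXPA, 16% in shXPC, 10.3% in shERCC4 and 13% in shERCC5. For shERCC6 this share was 9.63%, and for the mean it was 12%. Since the 7 genes were chosen with earlier results of these data known, these counts describe them and are not a test.

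**Figure D2:**
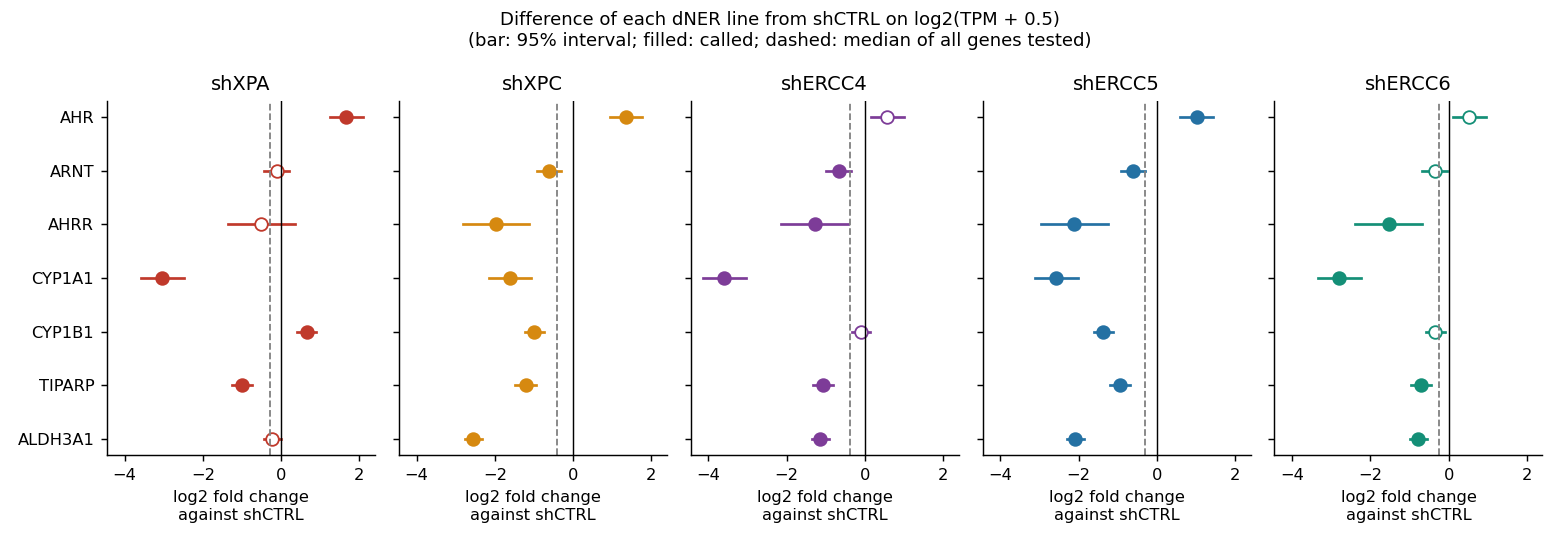
Log2 fold change (x) of each AHR pathway gene (y) in each dNER line against shCTRL, on log2(TPM + 0.5), with 95% intervals, filled points for called genes and a dashed line at the median of all genes tested. AHR lies to the right in all 5 lines and CYP1A1 to the left, from -1.61 in shXPC to -3.60 in shERCC4, and CYP1B1 runs from 0.66 in shXPA to -1.37 in shERCC5. With median-of-ratios scaling, which moves each dashed line to about 0, ARNT and ALDH3A1 in shXPA and CYP1B1 in shERCC4 cross to the right of 0.

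The dNER lines were also set against each other, which leaves shCTRL out of the contrast. Among the dNER lines shXPA had the highest mean TPM of AHR, ARNT, AHRR, CYP1B1 and ALDH3A1. Against the mean of the other 4 lines, AHR (log2 fold change 0.80, q = 0.00031), AHRR (1.22, q = 0.00291), CYP1B1 (1.36, q = 3.66e-09) and ALDH3A1 (1.41, q = 7.95e-10) were called higher in shXPA. These were 4 of the 7 genes, against 10.5% of all genes. No gene of the 7 was called lower by limma in shXPA, nor was any lower at an unadjusted p under 0.05, against 8.67% of all genes called lower. CYP1A1 was not among the genes higher in shXPA, with a value of -0.39 (95% interval -0.83 to 0.04).

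shXPC showed the opposite arrangement of the targets. Against the other 4 dNER lines, CYP1A1 was higher (log2 fold change 1.39, q = 4.39e-05) while CYP1B1 (-0.70, q = 1.33e-05) and ALDH3A1 (-1.49, q = 1.07e-09) were lower, 1 and 2 of the 7 genes against 5.04% and 7.92% of all genes. Under median-of-ratios scaling CYP1B1 (-0.56) missed the fold threshold there. shERCC5 had lower CYP1B1 (-1.17, q = 1.15e-07) and ALDH3A1 (-0.91, q = 7.77e-07), 2 of the 7 genes against 1.86% of all genes. In shERCC4 CYP1A1 was lower (-1.09, q = 0.000404; 9.27% of all genes were lower), and in shERCC6 ALDH3A1 was higher (0.72, q = 2.29e-06) and AHR was lower (-0.62, q = 0.00198), 2 calls in either direction against 18.2% of all genes. The ALDH3A1 call in shERCC6 was lost under median-of-ratios scaling (0.57). No member was called higher by limma in shERCC4 (3.63% of all genes) or shERCC5 (4.41%), with 2 in shERCC4 and 0 in shERCC5 at an unadjusted p under 0.05.

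In the order of mean levels, few neighbouring lines differed by a call, which needs the fold threshold as well as the q. For AHR the order was shCTRL, shERCC6, shERCC4, shERCC5, shXPC and shXPA, and no neighbours in it differed by a call. The same held of the orders of ARNT and AHRR. Under median-of-ratios scaling AHR in shERCC6 against shCTRL was called (0.77). CYP1A1 ran shERCC4, shXPA, shERCC6, shERCC5, shXPC and shCTRL, with calls between shERCC5 and shXPC (log2 difference 0.96, q = 0.0106) and between shXPC and shCTRL alone. CYP1B1 ran shERCC5, shXPC, shERCC6, shERCC4, shCTRL and shXPA, with calls between shXPC and shERCC6 (0.64, q = 0.000108) and between shCTRL and shXPA, of which that between shXPC and shERCC6 was lost under median-of-ratios scaling, where CYP1B1 in shXPC against shERCC6 was at -0.41. For TIPARP the call lay between shERCC6 and shCTRL, and it was lost under median-of-ratios scaling (-0.46 in shERCC6). For ALDH3A1 the call lay between shERCC5 and shERCC4 (0.94, q = 2.67e-06), and its order ran shXPC, shERCC5, shERCC4, shERCC6, shXPA and shCTRL. All 5 neighbouring steps of ALDH3A1 had a q under 0.05, and the 4 without a call missed the fold threshold. One of these, shXPA against shERCC6 (0.55, q = 0.00015), where the libraries did not overlap, was called under median-of-ratios scaling (0.64). Under that scaling ALDH3A1 in shXPA against shCTRL (0.11, limma q = 0.136) and in shERCC4 against shERCC6 (-0.18, q = 0.171) no longer had a q under 0.05. The share of all genes called in a pair of dNER lines was 15.5% for shXPA against shXPC, 24.6% for shXPA against shERCC4, 17.7% for shXPA against shERCC5, 31.5% for shXPA against shERCC6, 21.3% for shXPC against shERCC4, 10.2% for shXPC against shERCC5, 28.9% for shXPC against shERCC6, 14.4% for shERCC4 against shERCC5, 10.7% for shERCC4 against shERCC6 and 15.5% for shERCC5 against shERCC6. Of these 10 pairs, CYP1B1 differed in 8, ALDH3A1 in 7, CYP1A1 in 6, AHR in 5 and AHRR in 3, against a median of 1 pair over all genes. Under median-of-ratios scaling CYP1B1 differed in 7 pairs and ALDH3A1 in 8, and the counts of the other genes were the same. As many pairs as CYP1B1 were reached by 2.8% of genes, as ALDH3A1 by 5.14%, as CYP1A1 by 10.5%, as AHR by 14.7% and as AHRR by 32.2%. ARNT and TIPARP differed in 0 of the 10 pairs by limma, with 4 pairs each at an unadjusted p under 0.05.

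Ratios within a library do not change when all its values are divided by the same factor, as median-of-ratios scaling does. CYP1A1 stood at 0.0121 ± 0.00575 TPM per TPM of AHR in shXPA, 0.0585 ± 0.0201 in shXPC, 0.0119 ± 0.00365 in shERCC4, 0.0313 ± 0.0102 in shERCC5 and 0.0347 ± 0.0105 in shERCC6, against 0.504 ± 0.106 in shCTRL (SD, n = 3 each). The highest dNER library was at 0.0734 and the lowest shCTRL library at 0.383, so the groups were far apart. AHRR per AHR was 0.041 ± 0.019 in shXPA, 0.0145 ± 0.0161 in shXPC, 0.0503 ± 0.0338 in shERCC4, 0.0119 ± 0.00568 in shERCC5 and 0.033 ± 0.00862 in shERCC6, against 0.192 ± 0.0561 in shCTRL. Here too every dNER library, at most 0.0739, lay below every shCTRL library, at least 0.127. TIPARP per AHR was 0.361 in shXPA, 0.387 in shXPC, 0.743 in shERCC4, 0.594 in shERCC5 and 0.987 in shERCC6, against 2.36 in shCTRL.

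The 2 CYP1 genes parted most in the ratio of one to the other. CYP1B1 per CYP1A1 was 79.7 to 247 in shXPA, 10.9 to 16.5 in shXPC, 171 to 214 in shERCC4, 16.8 to 27.6 in shERCC5 and 43.1 to 84.4 in shERCC6, against 6.56 to 8.68 in shCTRL. The means were 176 ± 86.4 in shXPA, 12.9 ± 3.18 in shXPC, 197 ± 23.3 in shERCC4, 23.1 ± 5.60 in shERCC5 and 61.1 ± 21.2 in shERCC6, against 7.42 ± 1.11 in shCTRL (SD, n = 3 each). All dNER libraries lay above shCTRL, and shXPA and shERCC4 were the lines with the widest gap between the genes. With CYP1A1 under 1 TPM in most libraries of those lines, the ratio rests on low values.

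**Figure D3:**
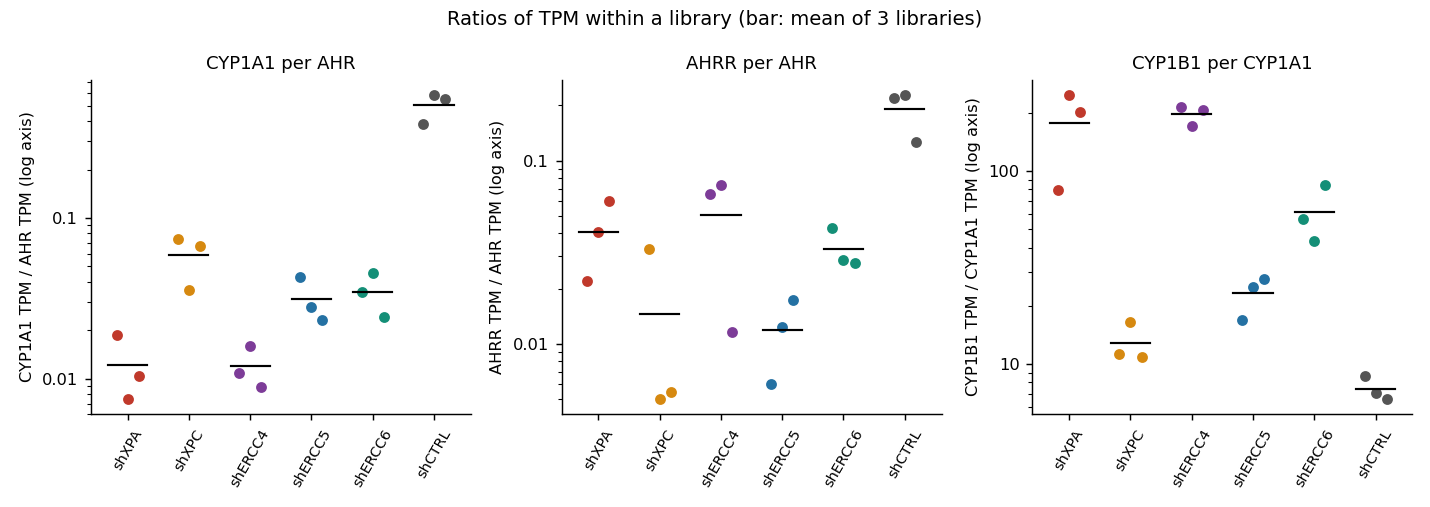
Ratios of TPM within a library on log axes (y) in the 6 lines (x), for CYP1A1 per AHR, AHRR per AHR and CYP1B1 per CYP1A1, with 1 point per library and a bar at the mean of 3. The dNER points lie below shCTRL for CYP1A1 per AHR (at most 0.0734, against at least 0.383) and AHRR per AHR, and above it for CYP1B1 per CYP1A1 (at least 10.9, against at most 8.68).

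The genes with the pattern most like each member were found by Pearson's r of log2(TPM + 0.5) among 16381 genes over 18 libraries, which are 3 libraries of each of 6 lines and share their library composition, so r is a description. For AHR these were RIN2 (0.954), PPL (0.951) and TSHZ2 (0.943), and for ARNT UBXN7 (0.95), NR3C1 (0.932) and YY1AP1 (0.931). AHRR had lower values, with BEND7 (0.884), SOGA2 (0.883) and KIF7 (0.872). For CYP1A1 they were PXDC1 (0.942), CCDC80 (0.924) and HSPB8 (0.922), and PXDC1 averaged 4.51 to 9.90 TPM in the dNER lines and 34.2 TPM in shCTRL. CYP1B1 was most like EPAS1 (0.944), the hypoxia-inducible factor HIF-2alpha, then RASA3 (0.93) and APMAP (0.922). EPAS1 averaged 113 TPM in shXPA, 58.0 in shXPC, 75.1 in shERCC4, 52.6 in shERCC5 and 73.0 in shERCC6, against 95.7 in shCTRL, the same order of the dNER lines as CYP1B1. TIPARP was most like SPTBN1 (0.98), GOLPH3 (0.979) and TRIP12 (0.977). ALDH3A1 was most like AKR1C1 (0.975), an aldo-keto reductase, then NFIX (0.953) and PAPPA (0.943), and AKR1C1 averaged 252 TPM in shXPA, 75.4 in shXPC, 179 in shERCC4, 90.9 in shERCC5 and 170 in shERCC6, against 261 in shCTRL.

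Lists of genes around AHR, chosen with earlier results of these data known, were then read for the mean of the 5 dNER lines against shCTRL. Each was set beside the median of -0.33 over all genes. Of all genes tested, 7.84% were called higher and 28.6% lower in that comparison. Under median-of-ratios scaling these shares were 13.7% and 12%. Of 3 chaperone genes of the cytosolic AHR complex, 3 were called lower and 0 higher (limma; 0 higher at an unadjusted p under 0.05), with a list median of -1.05. The chaperone HSP90AA1 averaged 301 to 649 TPM in the dNER lines, against 1084 TPM for shCTRL (log2 fold change of -1.33, q = 1.36e-09), and the p23 gene PTGES3 averaged 150 to 259 TPM in the dNER lines and 398 TPM in shCTRL (-1.05, q = 1.59e-09). HSP90AB1 was at -0.72, and its call was lost under median-of-ratios scaling (-0.35). Under that scaling 2 of the 3 chaperone genes stayed lower for the mean. By line it left 3 lower in shXPA, 2 in shXPC, 0 in shERCC4, 2 in shERCC5 and 1 in shERCC6. The shares of all genes lower under it were 17.1%, 16%, 10.3%, 13% and 9.63%, in the same order of lines. Of 13 other bHLH-PAS genes tested (16 listed), 5 were lower and 1 was higher, with a median of -0.43. The higher gene was the clock gene PER2 (0.81, q = 4.50e-06). PER1 (-0.68) and SIM2 (-0.62) were called lower, and HIF1A (-0.44) was not called. Under median-of-ratios scaling PER1 (-0.32) and SIM2 (-0.28) lost their calls, and 1 gene of this list was lower in place of 5.

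Other genes known to respond to AHR split both ways. Of 12 tested (17 listed), 4 were called higher and 3 lower, with a median of 0.15, and under median-of-ratios scaling 6 were higher and 3 lower, with a median of 0.48. Of all genes, 7.84% were called higher and 28.6% lower, and under that scaling 13.7% were higher and 12% lower. NQO1, a quinone reductase that responds to AHR and NRF2, fell to 64.6 to 263 TPM on average in the dNER lines, against 673 TPM in shCTRL (log2 fold change -2.40, q = 2.53e-12), and STC2, a secreted glycoprotein, was at -1.59 (q = 2.19e-08). VAV3, a guanine nucleotide exchange factor, averaged 31.9 to 64.1 TPM in the dNER lines and 10.3 TPM in shCTRL (2.09, q = 1.89e-09). SERPINB2, an inhibitor of plasminogen activators, was at 1.46 for the mean (q = 5.49e-06), with averages of 19.95 TPM in shXPA, 87.2 in shXPC, 2.83 in shERCC4, 23.0 in shERCC5 and 9.06 in shERCC6, against 5.46 in shCTRL, so that shERCC4 ran the other way (-1.04, called lower). The other calls were UGT1A6 (0.80) and FLG (0.61) higher and NEDD9 (-1.42) lower, which were named after their values were seen. FLG was low and averaged 2.76 TPM in shXPA, 0.956 in shXPC and 1.52 in shERCC4. Its average was 0.629 TPM in shERCC5 and 0.904 in shERCC6, against 0.636 in shCTRL. NEDD9 was low too, at 0.635 to 1.69 TPM on average in the dNER lines and 3.58 TPM in shCTRL. Of 6 tryptophan and kynurenine enzymes tested (10 listed), which make or break down AHR ligands, 1 was lower and 0 were higher (limma; 0 higher at an unadjusted p under 0.05). That gene was AADAT, which makes kynurenic acid, at 1.05 to 5.23 TPM on average in the dNER lines and 15.2 TPM in shCTRL (-2.34, q = 1.23e-09). KYNU (-0.19), AFMID (-0.24) and HAAO (0.40) were not called, and under median-of-ratios scaling KYNU turned to 0.17, AFMID to 0.12 and HAAO was called at 0.63. IDO1 and IDO2 were in the table under the filter.

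Of 8 AHR coactivators and corepressors, 2 were lower and 0 higher (limma; 0 higher at an unadjusted p under 0.05), with a median of -0.41. Of all genes, 28.6% were lower and 7.84% higher for the mean of the 5 lines, with a median of -0.33. The histone acetyltransferase gene CREBBP averaged 17.4 to 31.02 TPM in the dNER lines, against 35.1 TPM for shCTRL (log2 fold change of -0.70, q = 8.34e-07), and SMARCA4, an ATPase of the SWI/SNF complex, averaged 29.99 to 56.8 TPM in the dNER lines and 66.7 TPM in shCTRL (-0.77). Neither CREBBP (-0.35) nor SMARCA4 (-0.41) was called under median-of-ratios scaling. NCOA3 (-0.34) and EP300 (-0.36) were not called, and that scaling turned NCOA3 to 0.017 and left EP300 at -0.016, while quantile normalization turned EP300 to 0.011. Of 4 other enzymes of the ALDH3 and CYP1-like list, 1 was higher and 2 were lower. ALDH3B1 was lower in every line (-1.65 for the mean, q = 1.02e-10), and ALDH1A3 was lower for the mean (-1.11). In shERCC5 the ALDH1A3 libraries lay above shCTRL, at 58.8 to 67.7 TPM against 43.0 to 47.3 TPM (0.51, q = 0.00172, no call). ALDH3B2 averaged 21.0 TPM in shXPA, 15.1 in shXPC, 0.408 in shERCC4, 4.53 in shERCC5 and 3.65 in shERCC6, against 2.19 in shCTRL, with 1.08 for the mean (q = 0.000237) and a call lower in shERCC4 (-1.65). ALDH3A2 was at -0.04 for the mean, with no call, and turned to 0.32 under median-of-ratios scaling.

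NRF2 targets were read because ALDH3A1 and NQO1 share the oxidative-stress pathway with them. All 8 of the 8 listed were called lower for the mean of the 5 lines and in each line, with a median of -2.53. The list was chosen with earlier results of these data known, and NRF2 targets outside it were not counted. Of all genes, 28.6% were lower for the mean, and 19.7% (shERCC6) to 38.0% (shXPC) by line. HMOX1, haem oxygenase, averaged 1.69 to 3.97 TPM in the dNER lines against 33.8 TPM for shCTRL (log2 fold change of -3.47, q = 3.34e-12). TXNRD1 was at -2.89 (q = 4.26e-13), GCLM at -2.61 (q = 3.15e-11) and SRXN1, sulfiredoxin, at -1.65 (q = 3.79e-11). Under median-of-ratios scaling 8 of 8 stayed lower for the mean and 7 or 8 in each line. Of all genes, 12% were lower for the mean under it, and 9.63% (shERCC6) to 17.1% (shXPA) by line. ALDH3A1 did not keep to NQO1: ALDH3A1 per NQO1 was 0.993 ± 0.04 in shXPA, 0.254 ± 0.0153 in shXPC, 0.231 ± 0.0193 in shERCC4, 0.19 ± 0.011 in shERCC5 and 0.218 ± 0.0254 in shERCC6, against 0.146 ± 0.00828 in shCTRL (SD, n = 3 each). All dNER libraries lay above shCTRL, and the shXPA libraries, at 0.951 to 1.03, lay far above all others.

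**Figure D4:**
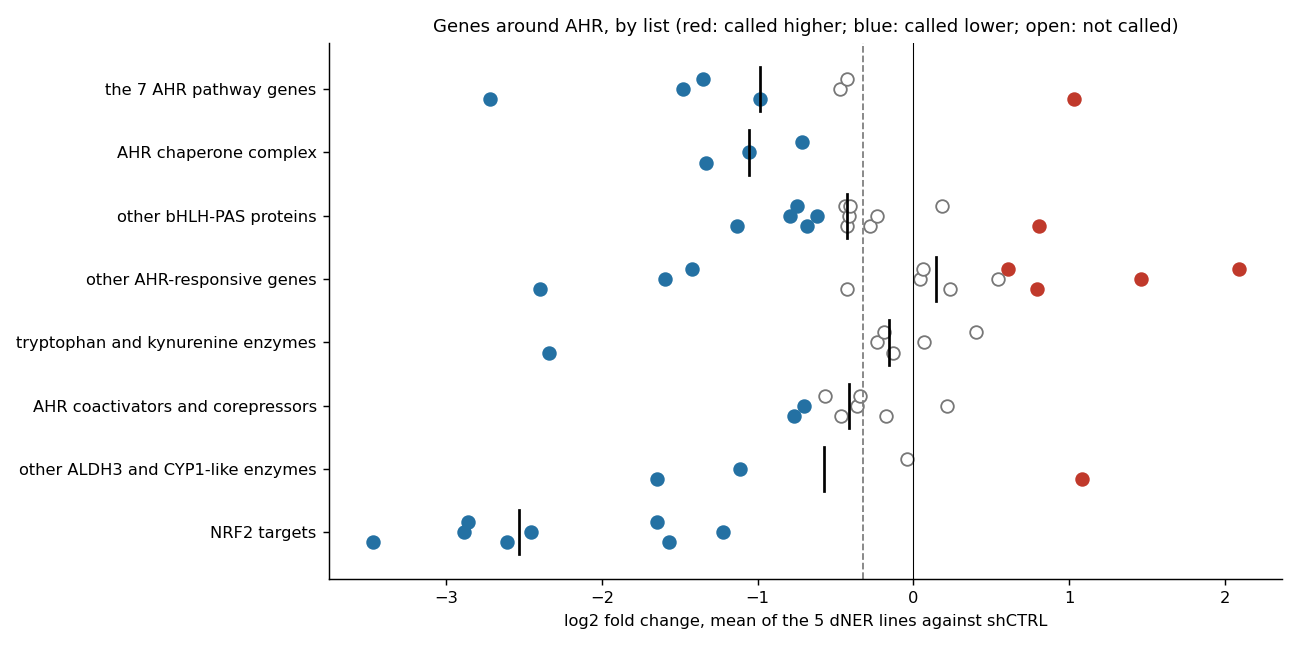
Log2 fold change (x) for the mean of the 5 dNER lines against shCTRL of the tested genes in each list (y), with red points called higher, blue points called lower, open points not called, a black bar at the list median and a dashed line at the median of all genes (-0.33). The 8 NRF2 targets all lie to the left (median -2.53), and the other AHR-responsive genes lie on both sides (median 0.15), as do the 7 AHR pathway genes (AHR at 1.03, CYP1A1 at -2.72). Median-of-ratios scaling moves points to the right by about the size of the dashed line and turns NPAS1, AFMID, KMO, KYNU, NCOA2, NCOA3 and ALDH3A2 positive.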

How the data were processed

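The authors depleted rRNA and sequenced 18 libraries, 3 biological replicates for each of 6 MCF-10A lines. The deposited values are TPM per gene symbol from kallisto (0.43.1 in the submitters' processing notes, another version in the methods text; hg38), as made by the authors; the transcript annotation, the way transcripts were summed to genes and any use of strand are not given in the sources used here. TPM keep no depth, so no count model, counting interval or detection limit was possible, and shifts in a few abundant transcripts move all other values of a library.

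The 16382 of 22031 genes that reached 1 TPM in 3 or more libraries were tested on log2(TPM + 0.5) in R 4.3.3 with limma 3.58.1: 1 fit of 6 lines, 12 residual degrees of freedom, empirical Bayes with a mean-variance trend. Storey's q used lambda 0.5 over all genes of a comparison, which can fall below p where the estimated share of unchanged genes is low. Genes were called at q under 0.05 and a fitted fold above 1.5. Each line and the mean of the 5 dNER lines were compared with shCTRL, each dNER line with the mean of the other 4, and dNER lines in 10 pairs. The comparisons with shCTRL share its 3 libraries. The fit was also run on simulated data drawn around the shCTRL means, with few genes changed and no fixed total. Those data lack the shift of the median gene, so the run does not test the fit under such a shift. Gene positions came from GENCODE 29 (GRCh38) and promoter windows from RefSeq (GRCh38.p14); Python 3.11.15 and matplotlib 3.10.9 drew the figures.

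The text names all 7 members, up to 4 genes per list with the smallest q for the mean of the 5 lines, the 3 genes most like each member and an overlapping gene. Members and lists were chosen with earlier results of these data known. Some genes of the lists are not reported here and were left out of their counts and medians. Alternatives were pseudocounts of 0.1 and 1, no filter or a 5 TPM filter, quantile normalization, scaling by median of ratios, leaving out clone-named entries above 1% of a library (CTD-2328D6.1 alone), unmoderated spread, Benjamini-Hochberg adjustment, separate fits per line, a replicate block and leaving out each library.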

Additional observations from a re-analysis of the deposited data

Results flagged for a closer look

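The level of 5 of the 7 genes differed between dNER lines by the limma test of the pair itself (q under 0.05 and a fold above 1.5), with no shCTRL library in the contrast. Of 10 pairs of dNER lines, AHR differed in 5, AHRR in 3, CYP1A1 in 6, CYP1B1 in 8 and ALDH3A1 in 7. The median over all genes tested was 1, so a difference in at least 1 pair was common. As many pairs were reached by 14.7% of all genes for AHR and 32.2% for AHRR. For CYP1A1 the share was 10.5%, for CYP1B1 2.8% and for ALDH3A1 5.14%. Under median-of-ratios scaling CYP1B1 differed in 7 pairs and ALDH3A1 in 8. The largest of these differences were ALDH3A1 in shXPA against shXPC (log2 fold change 2.32, q = 1.77e-10), CYP1B1 in shXPA against shERCC5 (2.02, q = 1.77e-09) and CYP1A1 in shXPC against shERCC4 (1.99, q = 9.13e-06). For AHR the largest was shXPA against shERCC6 (1.14, q = 7.40e-05), and for AHRR shXPA against shERCC5 (1.60, q = 0.00407).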

How the results depend on the processing

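Directions and calls of the 42 values of the 7 genes against shCTRL (5 lines and their mean) were kept in 42 of 42 under pseudocounts of 0.1 and 1, no filter, unmoderated spread, Benjamini-Hochberg adjustment and the replicate block, in 36 of 36 under the 5 TPM filter, which AHRR did not pass, and in 35 of 35 under separate fits per line, which cannot give the mean. They were kept in 31 of 42 under median-of-ratios scaling and under quantile normalization, in 38 of 42 without the clone-named entry and in 745 of 756 when 1 library was left out.

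Members called higher in shERCC4 (0) became 1 under median-of-ratios scaling, quantile normalization and without the clone-named entry, and 0 to 1 when 1 library was left out. Members called higher in shERCC6 (0) became 1 under both scalings and 0 to 1 with a library left out. Members called lower became 3 in shERCC4 under quantile normalization and 2 in shERCC6 under median-of-ratios scaling. Under median-of-ratios scaling and quantile normalization 10.3% and 10.2% of all genes were higher in shERCC4, and 11.1% and 10.1% in shERCC6. Without the clone-named entry 5.81% were higher in shERCC4. Lower calls took in 10% of all genes in shERCC4 under quantile normalization and 9.63% in shERCC6 under median-of-ratios scaling.

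Signs turned under median-of-ratios scaling and quantile normalization for ARNT in shXPA (0.21 and 0.28), CYP1B1 in shERCC4 (0.32 and 0.31), ALDH3A1 in shXPA (0.11 and 0.16) and, for the mean of the lines, KYNU (0.17 and 0.098), AFMID (0.12 and 0.14), NCOA3 (0.017 and 0.0404) and ALDH3A2 (0.32 and 0.26). EP300 turned under quantile normalization alone (0.011). Without the clone-named entry CYP1B1 in shERCC4 was 0.052 and ALDH3A2 0.013, and leaving out 1 library gave -0.096 to 0.00076 for ALDH3A2 (highest without shCTRL replicate 3) and -0.19 to 0.044 for CYP1B1 in shERCC4 (highest without shERCC4 replicate 1). Both scalings moved the median over all genes to about 0 by construction.

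Replicate numbers showed no pairing: the deviations of same-numbered libraries had a median correlation of 0.00704, against -0.00144 for other numbers. The replicate block changed none of the 42 calls: CYP1A1 for the mean of the lines stayed at -2.72 and AHR at 1.03. Depth is unknown, so no counting error could be given for the low levels of AHRR and CYP1A1.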
